A study of Mus musculus with 3 samples.

Results

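Integrin and adhesion genes of activated regulatory T cells were described in polyadenylated RNA. Regulatory T cells are CD4 T cells that express Foxp3 and dampen immune reactions. The 35 genes were listed by symbol and were not chosen by their levels, although earlier results of these data were known when they were chosen. They comprised 17 integrin alpha genes, 8 integrin beta genes and 10 genes for ligands, other adhesion receptors and cytoplasmic activators of integrins, out of 55536 annotated genes. No selectin gene was on the list, which held the selectin ligand gene Selplg. All 35 symbols matched a gene of GENCODE M21.

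The series held 1 group, primary activated regulatory T cells from a male mouse aged 9 weeks. The 3 libraries were technical replicates of 1 biosample from 1 donor, so every SD below (n = 3) is technical, and the tests describe the spread between libraries and not between animals. The sources used here do not give strain, genotype, organ, activation or sorting. With no second group, the comparisons were between genes, between transcripts and between libraries.

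Integrins are receptors of 1 alpha and 1 beta chain at the cell surface, and a chain reaches the surface only with a partner. The pairing sets the ligand. The beta 2 integrins bind ICAM proteins on other cells, alpha 4 beta 7 binds the gut vessel protein MAdCAM-1, alpha E beta 7 binds E-cadherin, and many beta 1 integrins bind extracellular matrix. The cytoplasmic proteins talin and kindlin bind the tail of the beta chain and switch the receptor to its high affinity state. In regulatory T cells, alpha v beta 8 is known to release active TGF-beta, and alpha E (CD103) marks cells associated with epithelia.

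Expected counts per library, which split reads shared by several genes, were 31445344, 32612609 and 37259281 in libraries 1, 2 and 3. The 35 genes took 0.969%, 0.926% and 0.925% of the counts. T cell markers were detected in 10 of 10 cases, from Thy1 (110 ± 1.71 TPM) to Trac (2846 ± 8.80 TPM), and regulatory T cell markers in 8 of 8, from Foxp3 (135 ± 2.65 TPM) to Tnfrsf4 (951 ± 21.4 TPM). TPM is a level corrected for transcript length and scaled to the same total in each library. All 6 erythroid markers were also detected, with Hbb-bs highest at 265 ± 47.7 TPM, and their summed level was 890, 637 and 714 TPM in libraries 1, 2 and 3.

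A gene was called detected with at least 1 TPM in all 3 libraries. By this rule, 27 of the 35 genes were detected, against 22.7% of annotated genes and 47.3% of 22028 protein-coding genes. The detected genes were 11 of 17 alpha genes, 6 of 8 beta genes and all 10 others. Of the members, 10 exceeded 100 TPM in every library, against 7.74% of protein-coding genes. The median over the 35 genes was 29.0 TPM, and that over all protein-coding genes 0.808 TPM. Over detected genes alone the medians were 64.3 TPM for the members and 29.2 TPM for protein-coding genes.

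**Figure D1:**
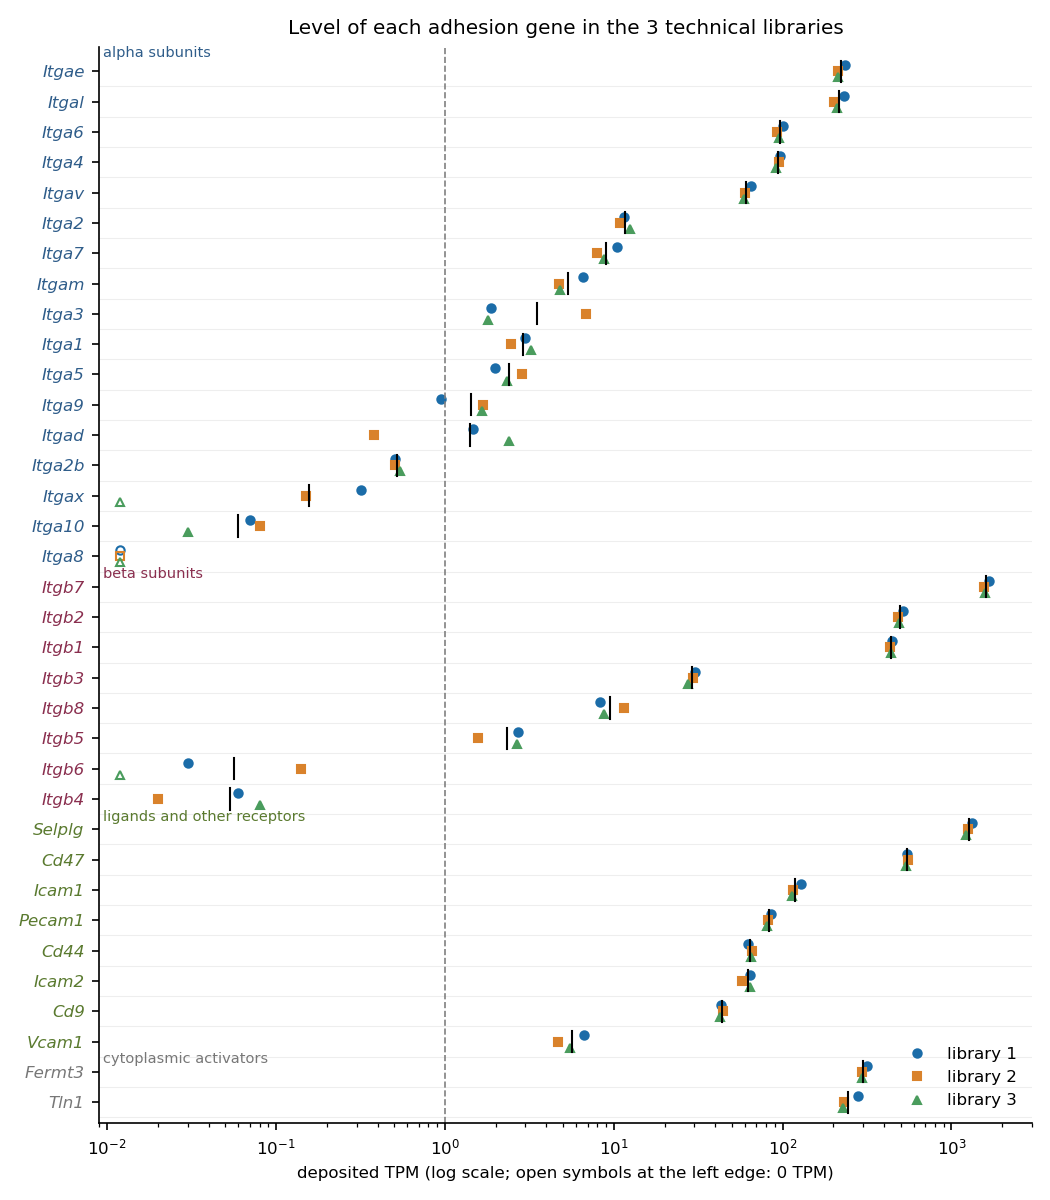
Deposited TPM (log axis) of the 35 genes by role, with 1 symbol per technical library, a black tick at the mean and a dashed line at 1 TPM; open symbols at the left edge are libraries at 0 TPM. Itgb7 and Selplg stand highest, at 1607 and 1267 TPM, and the genes under about 10 TPM show the widest gaps between libraries, with Itga3 from 1.79 to 6.87 TPM.

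The beta chain genes fell into 3 abundant genes and a set of low ones. Itgb7 (ENSMUSG00000001281.10, mm10 chromosome 15, 102215995 to 102231944, minus strand), the beta chain shared by alpha 4 beta 7 and alpha E beta 7, had 1679, 1560.4 and 1580.2 TPM in libraries 1, 2 and 3. Its mean of 1607 ± 63.6 TPM ranked 46 among protein-coding genes. Itgb2 (chromosome 10, 77530252 to 77565708, plus strand), the CD18 chain of the leukocyte integrins, had 519, 484 and 492 TPM. Itgb1 (chromosome 8, 128685654 to 128733200, plus strand), the CD29 chain that most matrix-binding alpha chains need, had 446, 435 and 441 TPM. No library of Itgb1 reached the lowest library of Itgb2, and none of Itgb2 came near Itgb7. The log2 ratio of Itgb7 to Itgb1 was 1.87 ± 0.04, or 3.64-fold (0.74 in CPM, which scales counts to the library total without length correction), and the ratio of Itgb2 to Itgb1 was only 0.18 ± 0.04. A ratio counted as exceeding its spread if its sign was the same in all 3 libraries and its mean was more than 2 SD. Both ratios passed, although the smallest p of an exact sign-flip test is 0.25 with 3 libraries. The order of Itgb2 and Itgb1 depended on the scale. Their log2 ratio was −0.22 ± 0.03 in CPM. When only protein-coding transcripts were summed it was −0.012 ± 0.026, which did not exceed its spread.

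The beta chains that pair with alpha v were lower. Itgb3, which also pairs with the platelet chain alpha IIb, had 30.1, 29.3 and 27.6 TPM. Itgb8, the chain of the TGF-beta releasing integrin, had 8.35, 11.5 and 8.73 TPM, and Itgb5 had 2.71, 1.57 and 2.68 TPM. The 3 libraries of each gene lay apart from those of the next. Itgb8 stood below Itgb3 by a log2 ratio of −1.62 ± 0.25, which was −3.18 on protein-coding transcripts. Itgb6 (0.03, 0.14 and 0 TPM) and Itgb4 (0.06, 0.02 and 0.08 TPM), chains known from epithelia, did not reach 1 TPM. Of 7 epithelial markers, only Epcam was detected, at 30.4 ± 2.30 TPM. Krt18 followed at 0.880 ± 0.0819 TPM, Krt5 and Krt14 had no counts in any library, and the list summed to between 28.7 and 33.1 TPM.

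Among the alpha genes, Itgae and Itgal led. Itgae (chromosome 11, 73090583 to 73147446, plus strand), which encodes alpha E, had 235, 213 and 214 TPM. Itgal (chromosome 7, 127296260 to 127335138, plus strand), the alpha chain of LFA-1, had 231, 203 and 210.06 TPM. The libraries of these genes overlapped, and the log2 ratio of 0.04 ± 0.03 did not exceed its spread. Itga6, a laminin receptor chain, followed at 101, 92.5 and 95.8 TPM. Itga4 (chromosome 2, 79255426 to 79333123, plus strand), the alpha chain of both alpha 4 beta 1 and alpha 4 beta 7, stood beside it at 95.9, 95.2 and 91.7 TPM. Itga6 and Itga4 also overlapped, with a log2 ratio of 0.03 ± 0.06, although on protein-coding transcripts alone Itga6 had 53.2 ± 3.12 and Itga4 26.1 ± 1.98 TPM. Itgav, the partner of 5 beta chains, had 64.9, 59.9 and 58.7 TPM.

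The remaining detected alpha genes stood between 2 and 12 TPM. Itga2, a collagen receptor chain, had 11.45, 10.97 and 12.48 TPM, above the related Itga1 (2.98, 2.48 and 3.22 TPM) by a log2 ratio of 2.01 ± 0.11, which was 4.15 on protein-coding transcripts. Itga7, a laminin receptor chain, had 10.5, 7.96 and 8.74 TPM. Itgam, the alpha chain of the myeloid integrin Mac-1, had 6.58, 4.74 and 4.78 TPM. The library 1 value of Itgam lay above the other two, which were alike. Itga3, another laminin receptor chain, had 1.89, 6.87 and 1.79 TPM, with library 2 far above the others. Itga5, the fibronectin receptor chain, had 1.97, 2.86 and 2.32 TPM.

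The rule left 8 genes undetected. Itga9 missed it in library 1 alone, with 0.95, 1.68 and 1.66 TPM. Itgad, the alpha D chain known from splenic macrophages, missed it in library 2, with 1.47, 0.38 and 2.4 TPM. Itga2b, the alpha IIb chain of platelets, had 0.51, 0.51 and 0.54 TPM. Itgax, the CD11c chain of dendritic cells, had 0.32, 0.15 and 0 TPM. The collagen receptor chain Itga10 had 0.07, 0.08 and 0.03 TPM. Itga8 had no counts in any library, where 3 counts would have given 0.0689 TPM. Such floors cover counting error only, since copies of a molecule were not told apart by molecular identifiers. Itga9, Itgad and Itga2b passed at 0.1 TPM, which 55.0% of protein-coding genes passed, and with at least 10 expected counts (52.4%) or 10 counts in the second, smaller gene table (50.2%). At 5 TPM, 21 of the 35 genes passed, against 40.1%, and with protein-coding or with complete coding transcripts alone 26 passed, against 45.7% and 45.0%.

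Several of the low genes are known from other cells, and the levels of those cells' markers are given beside them. In bulk RNA, few cells with much of a transcript and many cells with little of it cannot be told apart. None of 9 platelet markers was detected, their sum was 0.760 to 1.10 TPM, and Gp1bb and Treml1 had no counts. Pf4 was highest of them at 0.323 ± 0.185 TPM. Macrophage and monocyte markers were detected in 7 of 11 cases, from Ly6c2 (28.7 ± 8.20 TPM) down, with Cd14 lowest at 0.273 ± 0.291 TPM and none at 0 in all libraries. Their sum was 92.3, 99.3 and 85.5 TPM in libraries 1, 2 and 3. None of 9 neutrophil markers was detected, but their sum was 23.1 TPM in library 1 against 0.910 and 2.43 TPM in libraries 2 and 3. S100a8 was highest at 7.76, 0 and 0.20 TPM, and Cxcr2 was lowest at 0.0600 ± 0.0173 TPM. Dendritic cell markers were detected in 2 of 8 cases. Ccr7, which T cells also express, had 244 ± 18.0 TPM, Zbtb46 had 1.83 ± 0.427 TPM, Flt3 was lowest at 0.0867 ± 0.0902 TPM, and the list summed to between 228 and 265 TPM. B cell markers were detected in 5 of 8 cases, from Cd79b (29.3 ± 3.95 TPM) with Pax5 lowest at 0.0867 ± 0.0252 TPM, and summed to between 46.2 and 57.8 TPM. CD8 and NK markers were detected in 6 of 8 cases, led by Nkg7 (335 ± 4.16 TPM) and then Cd8b1 (21.4 ± 0.893 TPM), with no counts for Klra8 and a sum of 358 to 366 TPM. The part of these cells in the levels of Itgam, Itgax, Itgad and Itga2b was not tested.

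Integrin tails carry short conserved stretches. Annotated transcripts were searched for them, whether or not the gene was detected. The membrane-proximal stretch of alpha tails was searched as GGNTTNTT, in frame and on the coding strand, in the last 300 coding bases of every protein-coding transcript with a complete coding sequence. All 17 alpha genes, 11 of them detected, had a transcript that held it, against 2.70% of 21549 protein-coding genes. The pattern was written from the known alpha tail motif, so this count describes the annotation and is no result of these libraries. In all 17 the 30 bases around it ran across an exon junction, and in 15 they ended in the last exon. The stretches of the 5 most abundant alpha genes are shown with the motif in capitals, each from the gene's most abundant transcript that holds it.
Itgae-201: ttcaagtgtGGCTTTTTcaaaagaaaatat
Itgal-201: tacaaggttGGCTTCTTcaaacggaacctg
Itga6-201: tggaagtgtGGCTTCTTcaagagaaataag
Itga4-201: tggaaggctGGATTCTTtaaaagacagtac
Itgav-201: tacaggatgGGCTTTTTcaaacgtgtccga
The Itgae stretch lies between 73145646 and 73147074 on chromosome 11, across exons 30 and 31 of 31, and the Itga4 stretch between 79325689 and 79326543 on chromosome 2, across exons 27 and 28 of 28. Of the TPM on complete coding transcripts, 99.9% carried the motif for Itgal and 89.7% for Itga3. The share was 100% for each of the other 9 detected alpha genes.

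Beta tails were searched for AANCCNNNNTAN and AANCCNNNNTTN in the same way, 2 patterns that differ only in the last codon and cannot match the same place. Talin and kindlin sites without the CC of the second codon were not searched, so the patterns do not cover all such sites. The first was held by 5 of 8 beta genes, against 1.66% of protein-coding genes, and the second by 2 of 8, against 3.09%. The last match of each of the 4 most abundant beta genes is shown in capitals, with both patterns for Itgb7.
Itgb7-201, first pattern: caggacaacAATCCTCTCTACaaaagtgcg
Itgb7-201, second pattern: accactgtcAACCCCCGCTTCcaagggaca
Itgb2-201, second pattern: acggtcatgAACCCCAAGTTTgctgaaagc
Itgb1-201, first pattern: actgtggtcAATCCGAAGTATgagggaaaa
Itgb3-201, first pattern: acagcaaacAACCCGCTGTATaaagaggcc
Itgb7 held 1 match of each pattern, Itgb1 held 2 of the first and Itgb2 held 2 of the second. After the match shown, 3 codons followed in Itgb1-201, 3 in Itgb2-201 and 15 in Itgb3-201. In Itgb7-201, 29 codons followed the first pattern and 17 the second. The stretches shown therefore do not lie at the same place in each tail. The second Itgb7 stretch lies at 102216205 to 102216234 in exon 15, the last of the gene. Neither Itgb8 nor Itgb4 matched either pattern in the last 300 coding bases, and bases further from the end were not searched. Both beta patterns were likewise written from known motifs, so the counts of beta genes that hold them describe the annotation. A match is a run of letters in a transcript and was not measured as a binding site.

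The levels of partner genes were then set against each other in the same libraries. Of 25 gene pairs, 24 had a value in every library, and all 24 exceeded their spread. That spread is technical and no share over pairs of other genes was computed, so the count is descriptive. The pair without a value was Itgax and Itgb2, since Itgax was at 0 in library 3. Alpha genes stood below the beta genes they pair with in the abundant families. Itgal was below Itgb2 by a log2 ratio of −1.22 ± 0.05, so Itgb2 was 2.32-fold higher, and Itgam was below Itgb2 by −6.55 ± 0.22. Itgae was below Itgb7 by −2.86 ± 0.02, so Itgb7 was 7.28-fold higher, and Itga4 was below Itgb7 by −4.09 ± 0.05. Itgae exceeded Itga4 by 1.23 ± 0.07, or 2.34-fold. Itgal exceeded Itgam by 5.34 ± 0.18, or 40.4-fold. The sizes of these ratios depended on how the level was measured. Of the 24 pairs, 23 moved by more than 1.5 times in at least 1 of 4 other measures, which were CPM, the smaller gene table per kilobase, protein-coding transcripts and complete coding transcripts. Itgae to Itgb7 was −1.72 in CPM and −0.83 in the smaller table, and Itga4 to Itgb7 ranged from −5.40 on coding transcripts to −2.19 in the smaller table. Itgae to Itga4 was 2.93 on coding transcripts. Itgal to Itgb2 was −0.44 in CPM and −0.39 in the smaller table, where Itgam to Itgb2 was −4.24 and Itgal to Itgam 3.85.

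Summing all listed alpha partners did not reach the level of the beta gene. Itgae and Itga4 together had 315 ± 13.9 TPM, a log2 ratio to Itgb7 of −2.35 ± 0.02. The 4 beta 2 partners together had 222 ± 16.2 TPM, a log2 ratio to Itgb2 of −1.17 ± 0.05. The 11 beta 1 partners together had 283 ± 7.60 TPM, a log2 ratio to Itgb1 of −0.64 ± 0.03. Itga4 and Itgav have several beta partners, so these sums are upper values. The beta 1 sum turned to 0.91 ± 0.04 in the smaller gene table. In libraries 1, 2 and 3 that table held 5019, 5019 and 5023 counts for Itgb7 and 4789, 4790 and 4845 for Itgb1. The larger table held 55929, 54836 and 64425 expected counts for Itgb7 and 32576, 33832 and 38660 for Itgb1. Counts of these abundant genes stayed nearly level in the smaller table, which limits its ratios with such genes.

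The alpha v family went the other way. Itgav exceeded Itgb8 by a log2 ratio of 2.70 ± 0.29, Itgb3 by 1.08 ± 0.04 and Itgb5 by 4.76 ± 0.43. The ratio to Itgb3 became −0.44 ± 0.08 when only transcripts with a complete coding sequence were summed, an alternative chosen after seeing the data. The ratio to Itgb8 ranged from 2.00 in CPM to 3.75 on protein-coding transcripts. Itgav itself was below Itgb1 by −2.85 ± 0.07, or by −4.35 on complete coding transcripts and −1.24 in the smaller table. The ratios of Itga6 and Itga4 to Itgb1 were −2.20 ± 0.04 and −2.23 ± 0.04 over all transcripts, but −3.05 ± 0.06 and −4.08 ± 0.11 over protein-coding transcripts alone. Itga5 stood lower, at −7.55 ± 0.29.

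**Figure D2:**
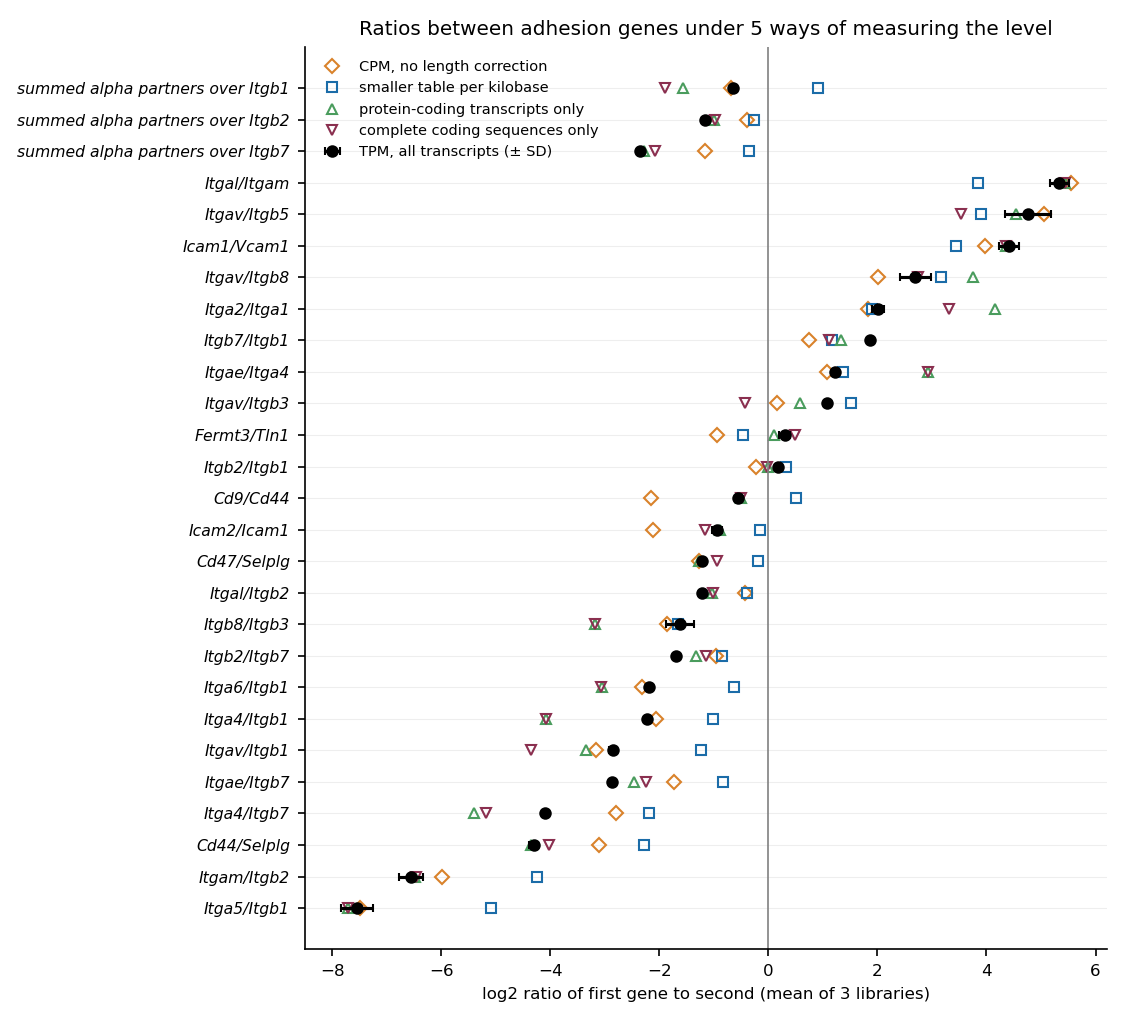
Log2 ratios of 24 gene pairs and 3 sums of alpha partners (mean of 3 libraries; black points with SD from TPM of all transcripts, open symbols from 4 other ways of measuring the level). Most ratios stay on their side of 0, while Itgb2/Itgb1, Itgav/Itgb3, Fermt3/Tln1, Cd9/Cd44 and the sum over Itgb1 cross it in at least 1 alternative.

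Part of several integrin levels came from transcripts that the annotation does not class as protein-coding. Over the 27 detected genes the median protein-coding share of TPM was 92.1%, against 88.1% over detected protein-coding genes, and 3 genes had a share under 50%, against 14.3% of detected protein-coding genes. Those genes were Itga1 (22.9% ± 3.25), Itga4 (27.7% ± 2.79) and Itgb8 (34.6% ± 7.33). For Itga4 the leading transcript was the processed transcript Itga4-203, with 29.1% ± 1.23, and coding Itga4-201 had 26.1 ± 1.98 TPM. Itga4-201 is 9767 bases long and Itga4-203 only 1826, and by expected counts Itga4-201 held 63.5% of the gene. For Itgb8 the retained-intron transcripts Itgb8-203 (39.2% ± 11.9) and Itgb8-202 (26.2% ± 11.1) stood beside coding Itgb8-201, which had 3.21 ± 0.176 TPM. For Itga1 the coding transcript Itga1-201 had 0.667 ± 0.150 TPM. The retained-intron transcript Itga1-206 held 27.5%, 17.7% and 48.0% of Itga1 in libraries 1, 2 and 3, and Itga1-202, also with a retained intron, held 32.2%, 25.4% and 20.9%, so the leading transcript differed between libraries. By expected counts the coding transcripts Itga1-201 and Itgb8-201 held 52.9% ± 4.22 and 58.6% ± 8.51 of their genes. On that scale 0 of the 27 detected members had a coding share under 50%, against 8.54% of detected protein-coding genes.

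The most abundant beta gene was divided as well. The coding transcript Itgb7-201 held 59.0% ± 1.13 of Itgb7, or 948 ± 39.9 TPM, and the retained-intron transcript Itgb7-204 held 31.6% ± 1.87, or 508 ± 17.9 TPM. By expected counts Itgb7-204 held 7.37%. With complete coding transcripts alone, Selplg (1000.3 ± 14.6 TPM) stood above Itgb7 (948 ± 39.9 TPM), the reverse of the order of the whole genes. Itgb1 and Itgb3 were almost entirely coding, with 99.4% ± 0.144 on Itgb1-201 and 100% on Itgb3-201. Itgb2 had 86.4% ± 2.31 on Itgb2-201 and 10.96% ± 2.87 on Itgb2-204, annotated for nonsense-mediated decay. Itgav had 35.1% ± 1.67 on complete coding Itgav-201, with 21.5% ± 0.266 on Itgav-205 and 14.4% ± 4.19 on Itgav-206, both coding but incomplete in the annotation.

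**Figure D3:**
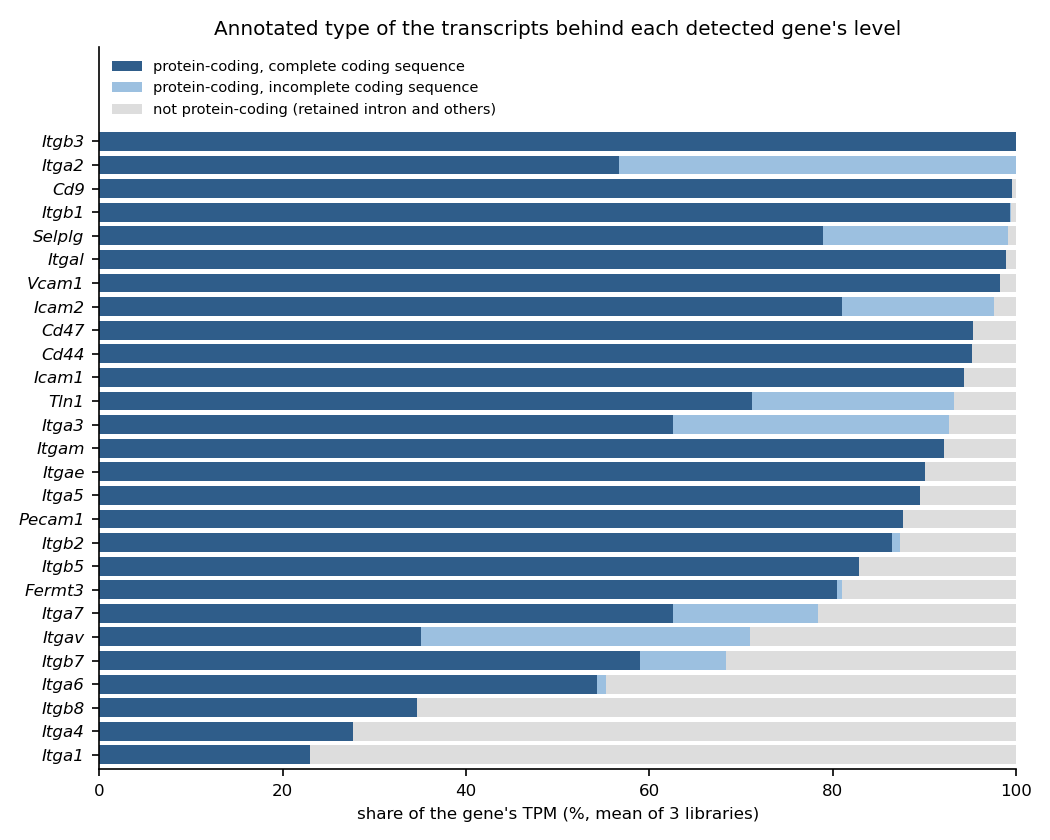
Share of each detected gene's TPM (percent, mean of 3 libraries) on complete coding, incomplete coding and other annotated transcripts, ordered by the coding share. Itgb3 is wholly coding, while Itga1, Itga4 and Itgb8 have under 50% of their TPM on coding transcripts.

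Itga6 and Itgal showed transcripts that differ inside the coding sequence. The alpha 6 chain is known in an A form, whose tail is encoded by an alternative exon, and a B form, which skips it. Transcripts with the alternative exon (its coding part is 105 bases at 71853534 to 71853638 on mm10 chromosome 2) held 55.2% ± 1.16 of Itga6 TPM, nearly all of it on coding Itga6-201. Transcripts that skip it held 39.1% ± 0.313, all on the processed transcript Itga6-203, and coding Itga6-202 was listed at 0 TPM in every library. The 15 bases on either side of the junction are shown with the downstream exon in capitals. Itga6-203 shares the junction of Itga6-202.
Itga6-201: tttttactgtggaagTGTGGCTTCTTCAAG
Itga6-202: tttttactgtggaagTGTGGATTCTTTAAG
For Itgal, Itgal-201 held 45.9% ± 2.51 and Itgal-202 37.2% ± 0.354. Their junctions in exon 18 use donor sites 3 bases apart, at 127317366 and 127317363 on chromosome 7.
Itgal-201: agggaccaaaaggtgGGCAGGGCCATGCAG
Itgal-202: ccaagggaccaaaagGGCAGGGCCATGCAG

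Among ligands and other receptors, Selplg (chromosome 5, 113818536 to 113832644, minus strand) was highest. It encodes PSGL-1, the mucin on leukocytes that selectins bind, and had 1318, 1258 and 1226 TPM. Cd47 (chromosome 16, 49800533 to 49915010, plus strand), the ligand of the phagocyte receptor SIRP alpha, had 542, 552 and 541 TPM, a spread of 1.09% of its mean. Itgb7 exceeded Selplg by a log2 ratio of 0.34 ± 0.03, and Cd47 was below Selplg by −1.22 ± 0.06, which was −0.18 in the smaller table. In libraries 1, 2 and 3 the smaller table held 2415, 2410 and 2404 counts for Selplg, against 39343, 40532 and 45183 expected counts. For Cd47 it held 2037, 2032 and 2056, against 15790, 17198 and 18732. Counts of both genes stayed nearly level there, which limits the value of −0.18.

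RNA of integrin ligand genes was found in these libraries too, and which cells gave it was not tested. Icam1, a ligand of beta 2 integrins, had 128, 115 and 114 TPM. Icam2, another such ligand, had 64.1, 57.7 and 64.4 TPM. Vcam1, the ligand of alpha 4 beta 1, had 6.67, 4.70 and 5.51 TPM. The 3 genes did not overlap in any library. Icam1 exceeded Vcam1 by 4.42 ± 0.18, and Icam2 was below Icam1 by −0.94 ± 0.10, which became −0.15 ± 0.08 and no longer exceeded its spread in the smaller table. Pecam1, an adhesion molecule of leukocytes and endothelium, had 85.2, 82.5 and 80.5 TPM. None of 9 endothelial markers was detected. Egfl7 was highest at 0.607 ± 0.155 TPM, Tek had no counts and the list summed to between 0.640 and 1.62 TPM. None of 8 fibroblast and stroma markers was detected, from Col1a1 (0.577 ± 0.140 TPM) to Lum (0.00667 ± 0.0115 TPM), with a sum of 0.730 to 2.09 TPM.

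Cd9, a tetraspanin that associates with integrins, had 43.3, 44.5 and 42.8 TPM, and Cd44, the hyaluronan receptor, had 62.5, 65.6 and 64.7 TPM. Cd9 lay below Cd44 in every library, by a log2 ratio of −0.56 ± 0.03. In the smaller table the ratio was 0.50 ± 0.04. Cd44 overlapped Icam2 and Icam2 overlapped Itgav, and neither ratio exceeded its spread.

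Cd44 (chromosome 2, 102811141 to 102901665, minus strand) was divided between a short and a longer form. The standard form of CD44 lacks the variable exons that encode part of the stalk outside the cell, and variant forms include some of them. Exons 6 to 15 of the longest transcript, Cd44-201, are the 10 variable exons. Cd44-203, with 9 exons and no variable exon, held 61.2%, 56.5% and 55.3% of Cd44 TPM in libraries 1, 2 and 3. Cd44-207, with 14 exons, included variable exons 10, 11, 13, 14 and 15 and held 33.6%, 36.8% and 35.7%. No library of Cd44-207 reached the lowest of Cd44-203. The other transcripts with variable exons held 2.18% ± 0.193 together, and exons 6 to 9 and 12 were each in transcripts with 1.55% ± 0.488. The retained-intron transcript Cd44-209 held 4.75% ± 1.76.

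The exon that follows exon 5 sets the forms apart. The 15 bases on either side of that junction are shown with the downstream exon in capitals. Exon 5 ends at 102853015, and the next exon begins at 102828610 in Cd44-203, 102842377 in Cd44-207 and 102848782 in Cd44-201.
Cd44-203: gcaccttggccaccaGAGATCGAGACTCAT
Cd44-207: gcaccttggccaccaATATAGACAGAATCA
Cd44-201: gcaccttggccaccaTTGCCTCAACTGTGC
The order of the 2 main forms depended on the scale. By expected counts, which are not corrected for length, Cd44-203 held 45.3% ± 2.81 and Cd44-207 49.6% ± 1.85. Cd44-207 and Cd44-201 carry 1406 bases beyond the annotated end of Cd44-203, and Cd44-202, listed at 0 TPM in every library, carries 17. The part of reads from those bases in the shares was not tested.

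**Figure D4:**
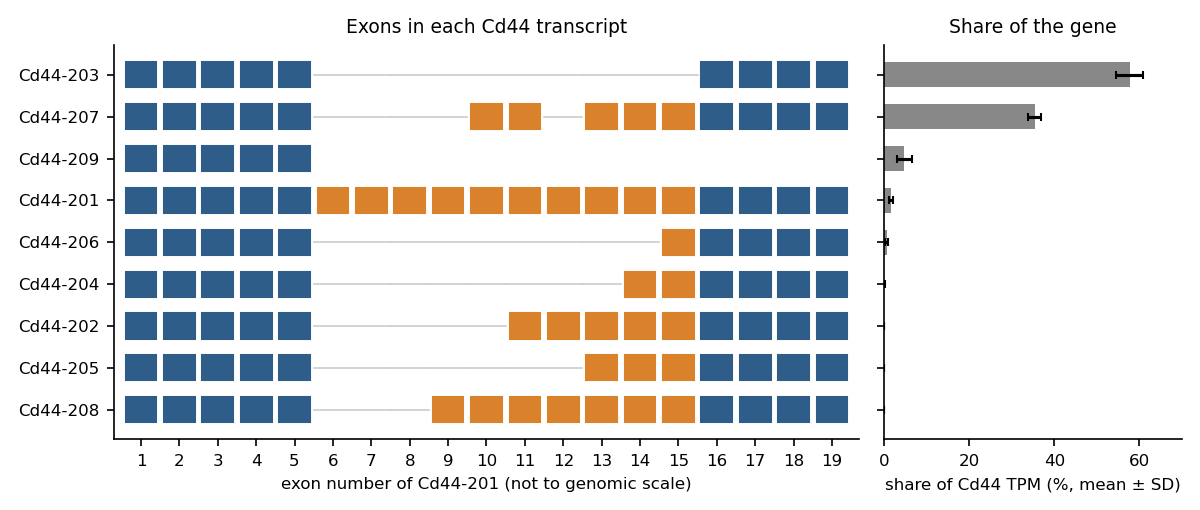
Exons of Cd44-201 contained in each Cd44 transcript (left; blue constant, orange variable exons, grey lines skipped exons, not to genomic scale) and each transcript's share of Cd44 TPM (right; mean ± SD of 3 libraries). Cd44-203 without variable exons held 57.7% and Cd44-207 with 5 of them 35.4%.

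The cytoplasmic activators were abundant. Fermt3 (chromosome 19, 6998958 to 7019469, minus strand), the kindlin of blood cells, had 318, 293 and 294 TPM. Tln1 (chromosome 4, 43531519 to 43562691, minus strand), which encodes talin 1, had 279, 231 and 227 TPM. Fermt3 exceeded Tln1 in every library, by a log2 ratio of 0.30 ± 0.10. Without length correction the ratio was −0.95 ± 0.08, and in the smaller table −0.47 ± 0.05. The related genes Tln2, Fermt1 and Fermt2 were not detected. Exons of Tln1 overlap Creb3 and exons of Fermt3 overlap Trpt1, and reads shared with these genes may be mixed, since the sources used here do not say whether the counting used strand.

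Other genes of integrin activation and its regulation were taken from a list, which was not split into genes that promote or restrain it. This list and those that follow were chosen with earlier results of these data known, so their detected shares are descriptive. Of 48 activation and adaptor genes, Tln1 and Fermt3 included, 40 were detected (83.3%, against 47.3% of protein-coding genes), with a median of 122 TPM. The adaptor Skap1 (563 ± 16.5 TPM), the small GTPase gene Rap1b (504 ± 35.4 TPM) and the cytohesin partner Cytip (467 ± 9.53 TPM) were highest. Parva was lowest at 0.0133 ± 0.00577 TPM, and the focal adhesion genes Vcl and Ptk2 were also not detected. Neither of the 2 remaining integrin family genes was detected. Itga11 had 0.0867 ± 0.0611 TPM and Itgbl1 had no counts, where 3 counts would have given 0.0402 TPM.

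The selectin genes Selp (0.95, 2.03 and 0.97 TPM) and Sele (0.29, 0.08 and 0.24 TPM), known from endothelium, were not detected. Genes for the modification of selectin ligands by glycans or sulfate were detected in 12 of 14 cases (85.7%, against 47.3% of protein-coding genes). Their median was 19.2 TPM. They were led by the tyrosine sulfotransferase gene Tpst2 (189 ± 9.02 TPM), Galnt1 (124 ± 5.76 TPM) and B4galt1 (53.9 ± 6.17 TPM), and Chst4 was lowest at 0.0333 ± 0.0577 TPM. All 14 tetraspanins were detected, against the same 47.3%, with a median of 75.1 TPM. Cd53 (892 ± 37.4 TPM), Cd37 (604 ± 32.3 TPM) and Cd82 (598 ± 28.5 TPM) stood far above the member Cd9, and Tspan2 was lowest at 1.45 ± 0.0721 TPM.

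Counter-receptors, matrix partners and sheddases outside the members were counted in the same way. Of 23 immunoglobulin superfamily and junctional genes, 10 were detected (43.5%, against 47.3% of protein-coding genes), and their median was 0.917 TPM. Cd2 (1322 ± 27.2 TPM), Cd48 (535 ± 3.15 TPM) and Bsg (231 ± 5.74 TPM) were highest, Ncam1 was lowest at 0.0533 ± 0.0473 TPM, and the alpha 4 beta 7 ligand Madcam1 and the alpha E beta 7 ligand Cdh1 were not detected. Of 21 matrix ligands and partners of CD44 or CD47, 8 were detected (38.1%, against the same 47.3%), with a median of 0.320 TPM. Srgn, the serglycin core protein that binds CD44, had 1533 ± 121 TPM. The membrane linkers Msn (909 ± 47.0 TPM) and Ezr (248 ± 11.5 TPM) followed, and Has2 was among 3 genes without counts. Of 9 sheddases and inhibitors, 8 were detected (88.9%, against the same 47.3%), with a median of 36.7 TPM. Timp2 (106 ± 6.54 TPM), Adam10 (80.6 ± 2.43 TPM) and Adam17 (63.0 ± 4.44 TPM) were highest, and Timp1 was lowest at 0.0833 ± 0.144 TPM.

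Along the order of mean TPM, 14 of the 26 ratios between neighbouring detected genes exceeded their spread. From Itgb7 down to Tln1, every neighbour differed beyond its spread. Tln1, Itgae and Itgal did not, nor did Itga6 and Itga4, or Cd44, Icam2 and Itgav. Among the low genes, Itga2, Itgb8 and Itga7 could not be ordered, and neither could any neighbours from Vcam1 down through Itgam, Itga3, Itga1, Itga5 and Itgb5. Some levels are less certain for a further reason. Of the 35 genes, 15 had fractional expected counts, which come from reads shared with other genes, and 14 had exons that overlap another gene, among them Itga4 with Cerkl, Itgav with Gm13684, Itgam with Gm49368 and Itga1 with Gm49395.

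The libraries themselves differed in small but measurable ways. A chi-square test of equal shares of reads over the 3 libraries (2 degrees of freedom, Benjamini-Hochberg adjustment over all genes) called 26 of the 30 genes with enough counts, against 65.8% of 15945 genes. Among genes with a mean of at least 100 counts it called 24 of 27, against 71.1%. The test compares reads and not molecules or animals. When the statistic was divided by the overdispersion that all genes share (11.7), only Tln1 was called, with an adjusted p of 2.08e-07, against 0.734% of genes. The library 1 value of Tln1 lay above both others. Without library 1 the test called 15 of the 30 members, against 48.6% of genes. Without library 2 it called 20, against 41.1%, and without library 3 it called 21, against 45.0%. In the smaller table it called 18 of 30, against 33.5%.

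The sizes of these differences were mostly small. Over the 19 genes with a mean of at least 1000 counts, the coefficient of variation beyond counting error had a median of 3.72%, with a highest value of 17.2% for Itga2, and the median over 6387 such genes was 4.91%. Of the 30 tested members, 11 were called with an excess of at least 10%, against 37.0% of all genes tested. Among genes with at least 100 counts, Itga3 (44.7%), Itgb5 (27.6%) and Itgam (22.9%) varied most, with mean counts of 196, 121 and 484. Itga3 was high in library 2, Itgb5 was low in library 2 and Itgam was high in library 1. Itgb1, Pecam1, Cd9 and Itga2b were tested and not called. Library 1 had the highest TPM for 18 of the 27 detected members, against 40.2% of all detected genes. Library 2 was highest for 6, against 30.3%, and library 3 for 3, against 29.5%.

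**Figure D5:**
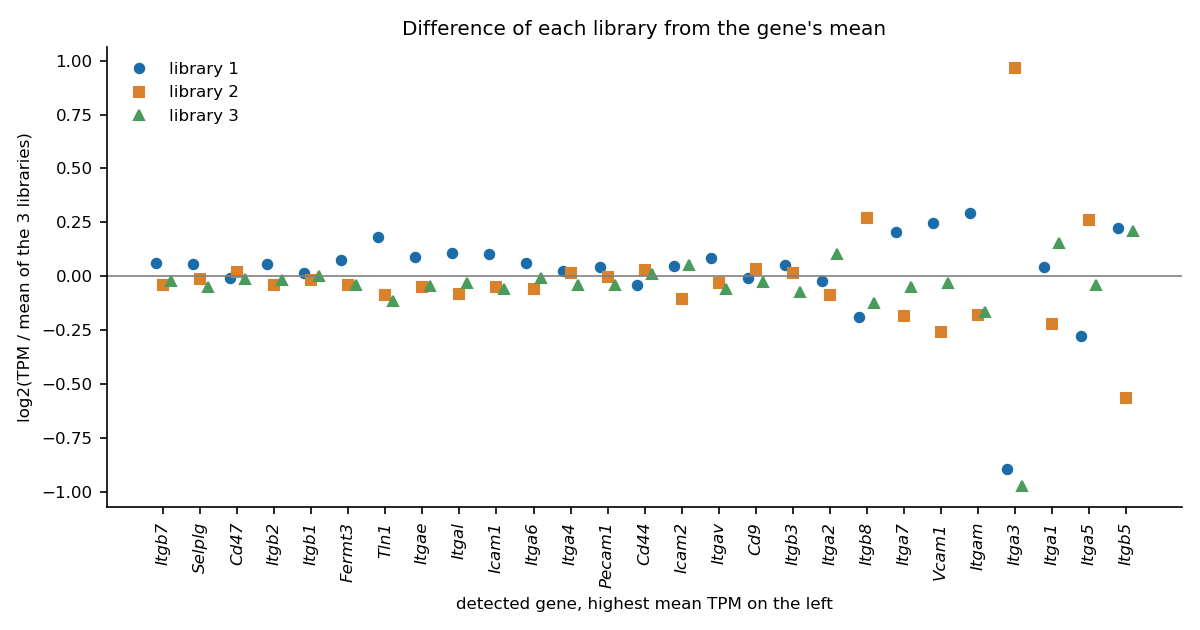
Log2 of each library's TPM over the gene's mean of 3 libraries, for the 27 detected genes from the highest mean TPM to the lowest. Genes above about 25 TPM stay close to 0 with Tln1 highest in library 1, and Itga3 shows the widest range, from 1.79 to 6.87 TPM around a mean of 3.52 TPM.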

How the data were processed

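RNA was measured by polyA-selected RNA-seq in 3 technical libraries of activated regulatory T cells, 1 group. Per the file headers and sample notes, the authors made a gene and a transcript table on mm10 with GENCODE M21, holding expected counts and TPM, and a smaller gene table of whole-number counts with GENCODE M4 from a separate alignment. The deposited expected counts split shared reads and were rounded for the chi-square test. The deposited TPM are length-corrected and were used as they stand. The sources used here name neither the quantification program nor any use of strand. The deposited counts of the smaller table served only as an alternative, since they levelled off in abundant genes such as Itgb7. Rows outside the annotation (0.125%, 0.182% and 0.155% of expected counts in libraries 1, 2 and 3) were left out.

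Members were matched by symbol. The members, gene lists, markers and comparisons were chosen with earlier results of these data known. All members are named, with the highest 3 and the lowest gene of each pathway list, the highest and the lowest of each marker list and the 3 members of largest excess variation with a mean of at least 100 counts. Cd99 and Cd58 had no gene in the annotation. A gene was tested by chi-square with at least 30 counts in all, at an adjusted p of 0.05. No contrast was left for a fit across groups. Alternatives used TMM (edgeR 4.0.16) and DESeq2 1.42.0 size factors, other thresholds, CPM, the smaller table per kilobase, coding transcripts, a pseudocount of 1 and each library left out. The chi-square script was tested on simulated data. Transcript types, coding parts and printed sequences came from the GENCODE M21 transcripts of mm10. R 4.3.3, Python 3.11.15, scipy 1.17.1, pandas 2.3.3, statsmodels 0.14.6, numpy 2.4.6 and matplotlib 3.10.9 were used.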

Additional observations from a re-analysis of the deposited data

How the results depend on the processing

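The count of detected members ranged from 21 (at least 5 TPM) to 30, and from 27 to 28 with a library left out. The log2 ratio of Itgb2 to Itgb1 turned from 0.18 to −0.22 in CPM. It was −0.012 ± 0.026 with protein-coding transcripts only and −0.025 ± 0.022 with complete coding sequences only. Neither of these values exceeded its spread. Itgav over Itgb3 turned from 1.08 to −0.44 with complete coding sequences only. Fermt3 over Tln1 turned from 0.30 to −0.95 in CPM and −0.47 in the smaller table, and Cd9 over Cd44 from −0.56 to 0.50 in the smaller table. The other 20 pairs kept their direction under all alternatives run, and none of the 24 changed direction with a library left out. The summed alpha partners over Itgb1 turned from −0.64 to 0.91 in the smaller table, and ranged from −0.65 to −0.62 with a library left out. The median member level of 29.0 TPM became 32.2 in CPM, 20.8 in the smaller table per kilobase, 26.1 with protein-coding transcripts and 21.5 with complete coding sequences. Members called by chi-square went from 26 to 1 after division by the overdispersion, 18 in the smaller table, and 15 to 21 with a library left out (15 without library 1). The share of Cd44-203 went from 57.7% to 45.3% by expected counts, and that of Cd44-207 from 35.4% to 49.6% by expected counts and 37.2% over protein-coding transcripts. The cause of these changes was not tested. No paired analysis was possible because the labels gave 1 group. Of the 24 pairs, 23 moved by more than 1.5 times in at least 1 of 4 other measures. The 3-count floor of the undetected genes was at most 0.0809 TPM, under the threshold of 1 TPM. Alternatives with complete coding sequences were chosen after seeing the data.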
